A study of Platycodon grandiflorus with 6 samples.

Results

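Glutathione S-transferases (GSTs) were followed among the unigenes, the assembled transcripts, of *Platycodon grandiflorus*. A unigene was counted as a GST where the name of its SwissProt match contained glutathione S-transferase or glutathione transferase, and 146 of 152777 unigenes met this. Of these, 16 were skipped because their best match in the NR protein database named *Arachis* (peanut), which left 130. By the class letter in the SwissProt name there were 28 theta, 14 tau, 12 zeta, 10 phi, 10 DHAR, 4 lambda and 4 TCHQD unigenes. The names of the other 48 carried no class letter.

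RNA of 3 leaf and 3 callus samples was sequenced, and the authors describe each tissue as independent biological duplicates. Leaves were taken from the original plants, and libraries are numbered as in the sample titles. Callus was raised from stems with nodes on MS medium with NAA, an auxin, at 1.0 mg/L and 6-BA, a cytokinin, at 0.5 mg/L, and was cultured for 50 d. Tissue of origin, culture and hormones therefore differed together between the groups and cannot be told apart, and in bulk RNA neither can fewer cells of a type and less RNA per cell.

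GSTs join the thiol of glutathione to electrophilic compounds, or use glutathione to reduce peroxides, disulfides and dehydroascorbate. In plants the tau and phi classes are the large, stress-responsive ones and are known for removal of herbicides and other foreign compounds. Zeta GSTs act as maleylacetoacetate isomerase in tyrosine breakdown, theta GSTs reduce organic peroxides, DHAR enzymes return dehydroascorbate to ascorbate, and lambda GSTs have thiol transferase activity.

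The libraries held 17963458 to 19444638 expected counts each, and all 6 were kept. The 130 GST unigenes took 0.120, 0.152 and 0.178% of the counts in leaf replicates 1, 2 and 3, and 0.504, 0.152 and 0.205% in callus replicates 4, 5 and 6. Photosynthesis markers (138 unigenes) summed to 33928 to 43008 FPKM, a read count scaled to transcript length and library size, in leaf and 12516 to 12987 in callus. Of the 112 tested, 50 (44.6%) were lower and 1 (0.893%) was higher in callus. Over all 66307 unigenes tested, 12.3% were lower and 14.2% higher. No photosynthesis marker with a leaf mean of at least 1 FPKM was at 0 in all callus libraries, so the callus was not free of this programme. Markers of dividing cells (56 unigenes: cyclins A and B, and proliferating cell nuclear antigen) summed to 84.8 to 109 FPKM in leaf and 154 to 198 in callus. Of the 31 of them tested, 13 (41.9%) were higher and 0 lower. The part of these shifts in the GST differences was not tested.

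Callus replicate 4 stood apart from the other callus libraries in GST level. The ratio of replicate 4 to the mean of replicates 5 and 6 was taken over unigenes with at least 5 FPKM in that mean, so that replicate 4 had no part in the choice. Of 33 such GST unigenes, 10 were more than 2-fold higher in replicate 4, and the median ratio was 1.43. Over all 17997 such unigenes the median ratio was 0.871, and 3.42% were more than 2-fold higher. Replicate 4 was the highest callus library for 28 of the 33 GSTs and for 24.9% of all. The excess lay largely among the names without a class letter whose database entries belong to tau GSTs. These were 27 matches to tobacco entries without a gene name, 7 to soybean HSP26-A, 2 to potato PRP1 and 2 to tobacco parA. There the median ratio was 2.23 over 12 unigenes, and 7 of the 12 were over 2-fold. Chosen instead by a leaf mean of at least 5 FPKM, 12 of 32 GSTs were more than 2-fold higher in replicate 4, against 11.6% of all unigenes. Results that rest on this library are given with and without it.

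**Figure D1:**
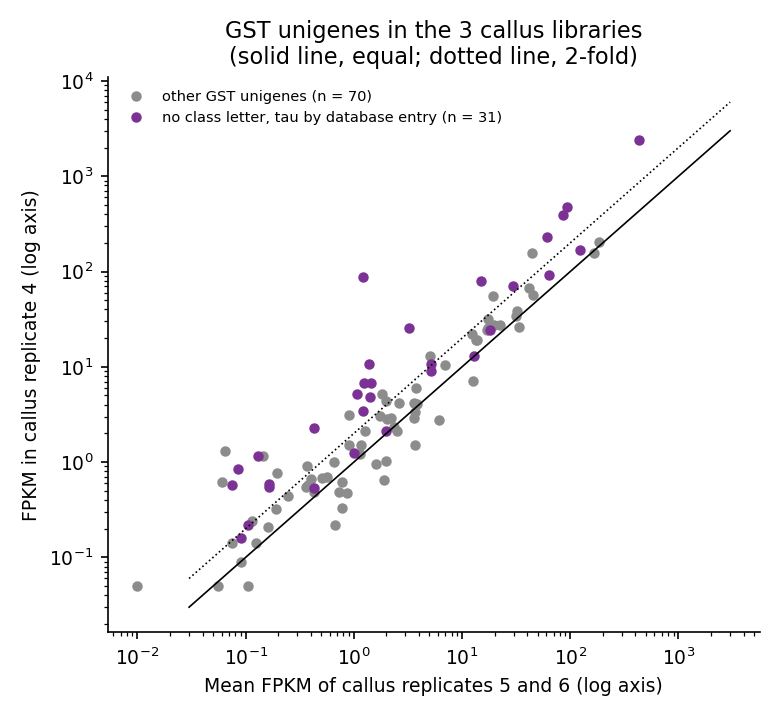
FPKM of GST unigenes in callus replicate 4 against the mean of callus replicates 5 and 6, both axes logarithmic, with 1 point per unigene and 29 unigenes at 0 on an axis not drawn. The unigenes without a class letter whose entries belong to tau (n = 31, purple) lie mostly above the dotted 2-fold line at high values, up to 2375 FPKM, while the others (n = 70, grey) lie nearer the line of equal values.

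As a family, the GSTs differed less between the tissues than among the callus libraries. The summed level was 1121, 1437 and 1680 FPKM in the leaf libraries and 5213, 1510 and 2064 FPKM in callus replicates 4, 5 and 6. Leaf replicate 3 lay above callus replicate 5, so the groups overlapped, and the means of 1413 ± 280 FPKM (SD, n = 3) in leaf and 2929 ± 1998 FPKM in callus differed by less than the SD of callus. On the log2 scale the summed counts differed by 0.87 ± 0.52 (SE) between callus and leaf, with an edgeR adjusted p of 0.221, and by 0.16 without callus replicate 4 (adjusted p = 0.679).

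The classes did not move as a body. Zeta GSTs were higher in callus, theta, DHAR and TCHQD GSTs were lower, and the sums of the others did not pass the test. The zeta sum was 106, 69.5 and 108 FPKM in leaf and 257, 168 and 210 FPKM in callus, 2.25 times the leaf mean. Every callus library lay above every leaf library, and the log2 fold change of the summed counts was 1.13 ± 0.26 (SE, adjusted p = 0.0167), or 0.96 without callus replicate 4 (adjusted p = 0.0370). DHAR was 318, 393 and 383 FPKM in leaf against 204, 182 and 230 FPKM in callus. Its libraries did not overlap either, with a log2 fold change of -0.94 ± 0.18 (adjusted p = 0.00878). Theta fell from 103, 90.8 and 106 FPKM to 57.5, 59.3 and 61.6 FPKM, again with no overlap. Its log2 fold change was -1.12 ± 0.12 (adjusted p = 0.00147) in counts, in which long unigenes weigh more than in FPKM. Of the 28 theta unigenes, 19 had no GST domain recorded, and those with a domain were not summed apart.

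**Figure D2:**
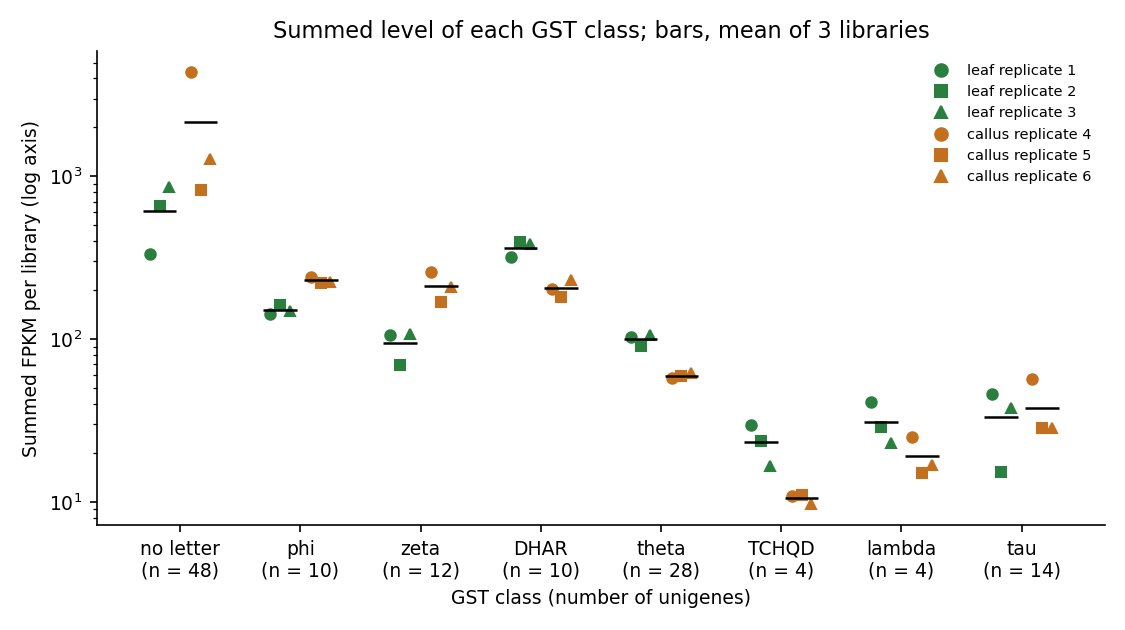
Summed FPKM of each GST class per library (log axis), with leaf in green, callus in orange, the marker shape giving the replicate and black bars the mean of 3 libraries. The zeta points of callus (168 to 257) lie above those of leaf (69.5 to 108), the DHAR and theta points of callus lie below, and the names without a letter reach 4360 in callus replicate 4 against 824 and 1284 in replicates 5 and 6.

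TCHQD GSTs, named after a bacterial tetrachlorohydroquinone dehalogenase, summed to 29.8, 23.7 and 16.7 FPKM in leaf and 10.8, 11 and 9.72 FPKM in callus, and the log2 fold change was -1.32 ± 0.25 (adjusted p = 0.00794). Without callus replicate 6 the adjusted p was 0.0517. Phi summed to 142, 161 and 149 FPKM against 242, 221 and 224 FPKM. The phi libraries did not overlap, yet the log2 fold change of 0.38 ± 0.15 did not pass the test (adjusted p = 0.0878). Lambda (log2 fold change -0.40, adjusted p = 0.248) and tau (0.05, adjusted p = 0.939) did not pass it either. Without callus replicate 4 the lambda sum was lower in callus, at -0.68 (adjusted p = 0.0357), and the tau value turned to -0.40 (adjusted p = 0.535). Of the 4 lambda unigenes, 3 had no GST domain recorded. The 48 unigenes without a class letter summed to 335, 654 and 858 FPKM in leaf and 4360, 824 and 1284 FPKM in callus. Their log2 fold change of 1.72 ± 0.74 (adjusted p = 0.107) dropped to 0.65 without callus replicate 4 (adjusted p = 0.308).

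**Figure D3:**
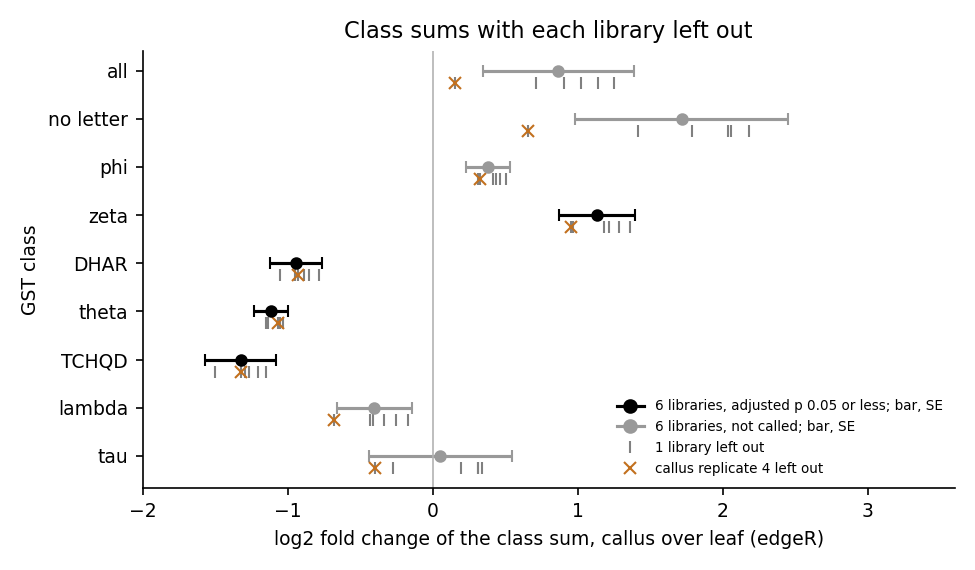
Log2 fold change, callus over leaf, of the summed counts of all GSTs and of each class (points; bars, SE), with the values after leaving out each library below each point and the value without callus replicate 4 as a cross. Zeta (1.13), DHAR (-0.94), theta (-1.12) and TCHQD (-1.32) pass the test, whereas the sum of all GSTs moves from 0.87 to 0.16 and the names without a letter from 1.72 to 0.65 when callus replicate 4 is left out.

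The composition of the family's transcript pool differed with these shifts. Names without a class letter made up 29.9, 45.5 and 51.0% of GST FPKM in the leaf libraries and 83.6, 54.6 and 62.2% in callus replicates 4, 5 and 6. DHAR made up 28.4, 27.4 and 22.8% in leaf and 3.91, 12.0 and 11.1% in callus, with no overlap in either. The most abundant unigene alone, CL12102.Contig1_All, took 4.08, 17.4 and 21.4% of GST FPKM in the leaf libraries and 45.6, 20.5 and 27.0% in callus replicates 4, 5 and 6. Of the 130 unigenes, 31 had a mean of at least 10 FPKM over the 6 libraries, 48 were under 1 FPKM and 3 were at 0 in every library.

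For single unigenes, 87 of the 130 had enough reads to be tested. The 43 others did not pass the filter on low counts. Of the 87, 14 (16.1%) passed the edgeR test (adjusted p up to 0.05) as higher in callus, against 14.2% of all 66307 unigenes tested. Another 16 (18.4%) were lower, against 12.3% of all. The median log2 fold change was -0.30 for the GSTs and -0.10 for all unigenes tested. Every callus library lay above every leaf library for 23 GSTs (26.4%, against 28.4% of all) and below for 28 (32.2%, against 25.5%). DESeq2, run as an alternative, called 17 of 112 GST unigenes higher (15.2%, against 15.6% of all) and 30 lower (26.8%, against 16.1%). At the study's thresholds (adjusted p of 0.001 and 2-fold) it called 11 higher and 8 lower, against 7.94 and 5.81% of all. There edgeR called 0 of all unigenes tested, so its 0 GSTs are no result about the family. All 30 GSTs called by edgeR kept their direction when each library was left out in turn, but few calls were kept. Without callus replicate 4, 8 of the 14 and 6 of the 16 were still called, without replicate 5 it was 6 and 2, and without replicate 6 it was 1 and 0. In those 3 fits the share of all unigenes called higher was 6.79, 2.35 and 0.899%, and the share called lower was 5.46, 1.64 and 0.611%. The calls of single unigenes below are therefore given with the sum over their contig cluster, where the biological coefficient of variation was 0.537 against 0.753 for unigenes.

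**Figure D4:**
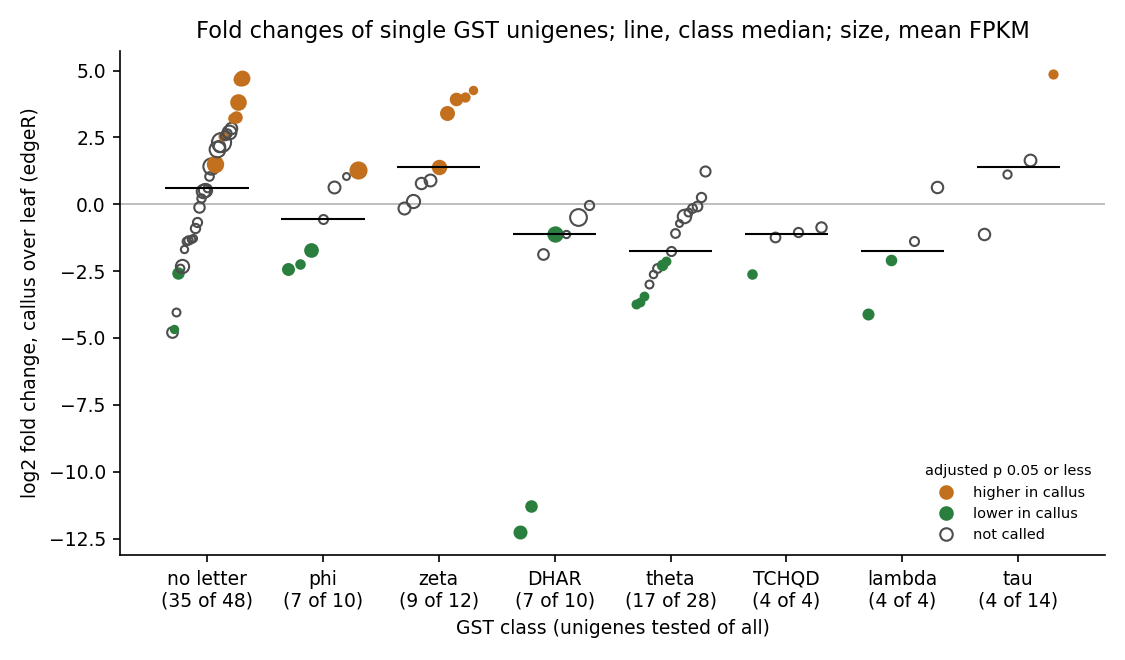
Log2 fold change, callus over leaf, of the 87 tested GST unigenes by class, with filled points for those with adjusted p up to 0.05 (orange, higher; green, lower), point size rising with mean FPKM and a line at each class median. In zeta 5 of 9 are called higher and 0 lower, in theta 0 of 17 higher and 5 lower, and the pair of DHAR points below -11 are contigs at 0 in all callus libraries, whose fitted values are no measure of size.

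Contigs that share a CL number come from 1 assembly cluster and can share reads, so their counts were also summed. The 130 unigenes fell into 23 clusters and 60 singles, of which 56 were tested. Of these, 8 (14.3%) were higher in callus, against 22.0% of all 32898 clusters and singles, and 19 (33.9%) were lower, against 20.8% of all. Without callus replicate 4 there were 5 higher and 13 lower, without replicate 5 there were 6 and 8, and without replicate 6 there were 5 and 8. The shares of all clusters and singles called higher and lower were then 16.5 and 13.9%, 14.2 and 10.4%, and 13.0 and 9.36%. In each of the 6 fits with 1 library left out, 5 of the 8 and 6 of the 19 were called. In CL725 (higher) and CL13611 (lower), which are among these, the GST contigs held only 5.80 and 5.52% of the summed counts, so these sums describe mostly other contigs.

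Zeta GSTs were higher in callus through 1 cluster. All but 1 of the 12 belonged to cluster CL3773, whose matches were the zeta class GST of leafy spurge (*Euphorbia esula*) and *Arabidopsis* Z2. The cluster sum was 64.9, 48.5 and 78.5 FPKM in leaf and 224, 137 and 178 FPKM in callus replicates 4, 5 and 6. The groups were well apart, with a log2 fold change of 1.38 ± 0.28 (SE, adjusted p = 0.0109), which stayed between 1.19 and 1.63 with any library left out and was called in each of those 6 fits. Of the 8 contigs tested, 5 were higher and 0 lower.

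The contigs of CL3773 differed in how strongly they changed. CL3773.Contig7_All went from 4.47, 3.09 and 6.31 FPKM to 56.3, 42.8 and 48.6 FPKM, a log2 fold change of 3.42 ± 0.37 (adjusted p = 0.00557), and it was the only called GST unigene whose call was kept whichever library was left out. CL3773.Contig4_All went from 1.10, 2.92 and 0.63 FPKM to 27.4, 21.3 and 23.7 FPKM, a log2 fold change of 3.93 ± 0.66 (adjusted p = 0.0120). CL3773.Contig5_All, the most abundant zeta contig, was at 16.4, 20.0 and 20.4 FPKM in leaf and 66.8, 35.0 and 47.7 FPKM in callus, and the log2 fold change was 1.40 ± 0.33 (adjusted p = 0.0288). For all of these the lowest callus library was above the highest leaf library. The call of Contig5 was lost with any library left out, at adjusted p of 0.0556 to 0.0962. In contrast, the zeta unigene outside the cluster, Unigene30093_All, was at 40.9, 21.0 and 29.0 FPKM in leaf and 33.9, 31.3 and 32.0 FPKM in callus. Its groups overlapped (log2 fold change 0.11 ± 0.29, adjusted p = 0.807). The other enzymes of tyrosine breakdown were 4-hydroxyphenylpyruvate dioxygenase, homogentisate 1,2-dioxygenase and fumarylacetoacetase (25 unigenes). Of their 20 tested unigenes, edgeR called 0 in either direction, and 3 had an unadjusted p under 0.05. Of all 66307 unigenes tested, 14.2% were called higher, 12.3% lower, and 27668 had an unadjusted p under 0.05. Fumarylacetoacetase, the next enzyme after the isomerase, was most abundant in Unigene6093_All, at 22.2, 16.3 and 22.7 FPKM in leaf and 21.0, 16.8 and 22.8 FPKM in callus (log2 fold change -0.01, adjusted p = 0.975).

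**Figure D5:**
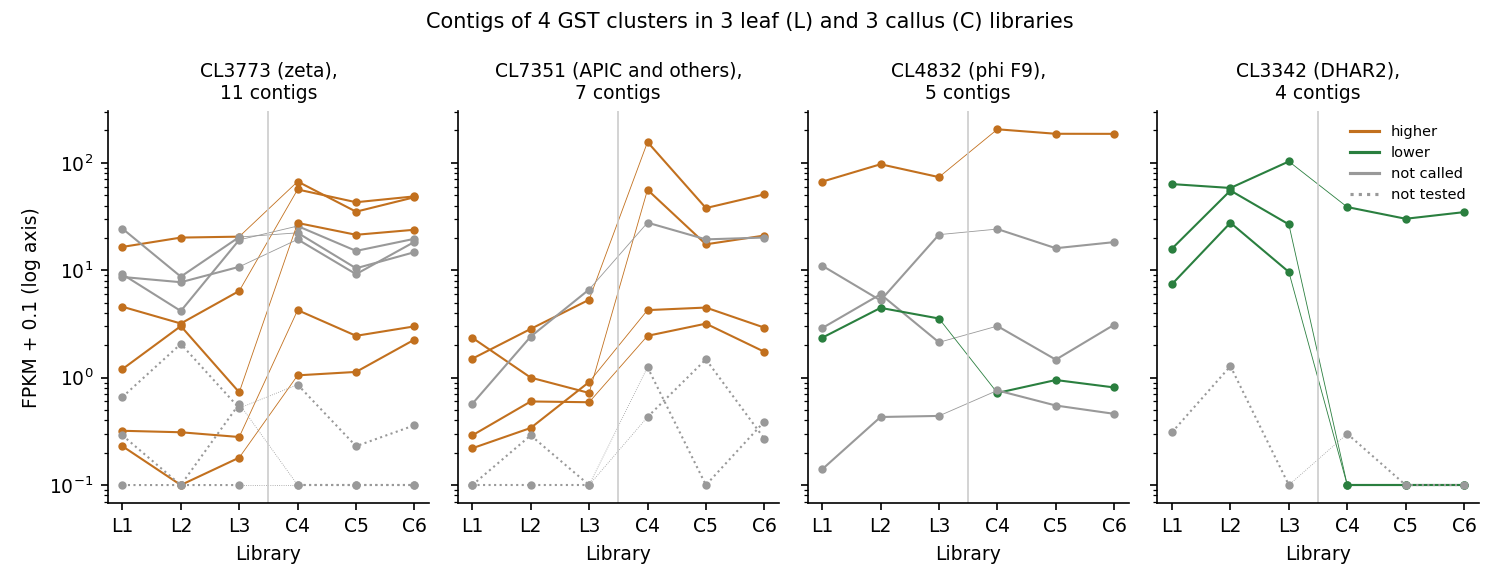
FPKM + 0.1 (log axis) of the GST contigs of 4 clusters in leaf replicates 1 to 3 (L1 to L3) and callus replicates 4 to 6 (C4 to C6), with a line joining the values of 1 contig and its colour giving the edgeR call. In CL3773 and CL7351 the called contigs are all higher in callus (5 and 4 contigs), CL4832 holds 1 higher and 1 lower contig, and 2 of the 3 lower contigs of CL3342 are at 0 in all callus libraries.

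DHAR GSTs were lower in both of their main clusters. CL3342 matched the chloroplastic DHAR2 of rice and summed to 86.6, 142 and 139 FPKM in leaf and 38.8, 30.0 and 34.6 FPKM in callus. Its log2 fold change was -1.90 ± 0.26 (adjusted p = 0.00327), and the call was kept whichever library was left out. Its main contig, CL3342.Contig1_All, was at 63.2, 58.2 and 103 FPKM in leaf and 38.6, 30.0 and 34.6 FPKM in callus (log2 fold change -1.12 ± 0.30, adjusted p = 0.0395), and this call was lost in 5 of the 6 fits with a library left out (adjusted p up to 0.149). Further contigs of this cluster were seen in leaf alone. CL3342.Contig4_All was at 15.8, 55.1 and 26.6 FPKM in leaf and at 0 in the 3 callus libraries, at least 592-fold lower against 3 counts over the group. CL3342.Contig2_All was at 7.32, 27.6 and 9.53 FPKM in leaf and 0 in callus, at least 298-fold lower. Both passed the test (adjusted p = 0.00897 and 0.0113), though not without callus replicate 6 (0.0503 and 0.0567). Reads shared with CL3342.Contig1_All could have been given to either, so the loss of a contig is less certain than the fall of the sum.

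CL11197 matched *Arabidopsis* DHAR2, the cytosolic form, and was the most abundant DHAR cluster. It summed to 228, 244 and 240 FPKM in leaf and 162, 148 and 191 FPKM in callus, with no overlap. The fall was small, at -0.60 ± 0.15 on the log2 scale (adjusted p = 0.0213), and the call was lost in 5 of the 6 fits with a library left out (adjusted p up to 0.0900). Its main contig, CL11197.Contig1_All, at 214, 224 and 235 FPKM against 158, 144 and 188 FPKM, did not pass the test alone (log2 fold change -0.46, adjusted p = 0.111). In leaf it was the DHAR unigene with the highest FPKM, and it was above CL3342.Contig1_All in all 6 libraries.

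Phi GSTs moved in opposite directions by subgroup. The cluster CL4832 matched *Arabidopsis* GSTF9, a phi GST with glutathione peroxidase activity. It summed to 82.6, 112 and 101 FPKM in leaf and 233, 205 and 208 FPKM in callus. Its log2 fold change of 0.84 ± 0.19 (adjusted p = 0.0155) was called in each of the 6 fits with a library left out. CL4832.Contig5_All carried most of it, at 66.6, 96.8 and 73.4 FPKM in leaf and 205, 186 and 186 FPKM in callus (log2 fold change 1.28 ± 0.23, adjusted p = 0.0146, and up to 0.0689 without callus replicates 5 or 6). The callus values were close together and all above leaf. CL4832.Contig4_All, at 10.9, 5.13 and 21.3 FPKM against 24.1, 15.9 and 18.2 FPKM, overlapped between the tissues (adjusted p = 0.389). A minor contig, CL4832.Contig2_All, chosen after its values were seen, was lower, with 2.25, 4.36 and 3.45 FPKM in leaf and 0.62, 0.85 and 0.71 FPKM in callus (log2 fold change -2.22, adjusted p = 0.0193, and up to 0.0973 without 1 of the callus replicates). It has no GST domain and its NR match is named a cytochrome P450. CL4832.Contig5_All was the only contig of the cluster with a GST domain in Pfam.

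The phi unigenes that matched GSTF8, a chloroplast GST induced by stress in *Arabidopsis*, went the other way. Unigene13843_All was at 46.1, 30.7 and 29.9 FPKM in leaf and 7.15, 12.8 and 12.6 FPKM in callus, and the log2 fold change was -1.73 ± 0.32 (adjusted p = 0.0150). Unigene13844_All was at 12.6, 18.1 and 15.5 FPKM in leaf and 1.52, 3.73 and 3.64 FPKM in callus, and the log2 fold change was -2.41 ± 0.44 (adjusted p = 0.0145). In both, every callus library was below every leaf library, and callus replicate 4 was the lowest. Without callus replicates 5 or 6 the adjusted p rose to at most 0.0706 and 0.0695. In the table of clusters and singles both calls were kept in all 6 such fits.

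Among the names without a class letter, the most abundant unigenes were high in 1 callus library and did not pass the test. CL12102.Contig1_All, which matched an unnamed GST of tobacco, had 45.8, 250.4 and 359 FPKM in leaf and 2375, 310.0 and 558 FPKM in callus replicates 4, 5 and 6. Callus replicate 5 was below leaf replicate 3, and leaf replicate 1 was low as well. The log2 fold change was 2.34 ± 1.06 (adjusted p = 0.151), and 0.98 without callus replicate 4 (adjusted p = 0.456). Unigene17008_All, also matched to a tobacco GST without a gene name, was at 55.4, 75.4 and 122 FPKM in leaf and 480, 46.9 and 139 FPKM in callus. Its value was lowest of all 6 libraries in callus replicate 5 (log2 fold change 1.44 ± 0.87, adjusted p = 0.259, and 0.14 without replicate 4).

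The same library led in the soybean HSP26-A matches, a GST known as induced by heat and other stress in soybean. CL6641.Contig1_All was at 9.75, 85.1 and 41.4 FPKM in leaf and 393, 66.7 and 104 FPKM in callus (log2 fold change 2.062 ± 1.02, adjusted p = 0.181). With a library left out its log2 fold change ran from 0.88 to 2.95. CL6641.Contig2_All was at 1.31, 8.73 and 15.5 FPKM in leaf and 232, 52.2 and 69.4 FPKM in callus. The second contig did not overlap between the tissues and was called higher (log2 fold change 3.82 ± 1.09, adjusted p = 0.0480). That call was lost with any library left out, and the cluster sum was not called (log2 fold change 2.48, adjusted p = 0.0857). Without callus replicate 4 the cluster's log2 fold change was 1.38 (adjusted p = 0.255). CL12080.Contig1_All, one of the matches to parA, an auxin-responsive gene of tobacco, was chosen after its values were seen. It stood at 0.07, 0.30 and 0.36 FPKM in leaf and 87.7, 0.53 and 1.90 FPKM in callus, so 1 library held nearly all of its reads, and it did not pass the filter. Its cluster sum was called higher with 6 libraries (log2 fold change 6.87, adjusted p = 0.0446), and was 2.32 without callus replicate 4 (adjusted p = 0.0866).

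Other unigenes without a letter were higher in all callus libraries. Unigene6787_All, again a match to an unnamed tobacco GST, was at 48.4, 45.5 and 52.1 FPKM in leaf and 169, 104 and 142 FPKM in callus. The log2 fold change was 1.52 ± 0.26 (adjusted p = 0.0126, and 0.0672 without callus replicate 6). As a single in the cluster table the unigene was called in all 6 fits with a library left out. CL13611.Contig8_All rose from 1.74, 1.32 and 0.95 FPKM to 12.9, 10.4 and 15.6 FPKM (log2 fold change 3.27 ± 0.40, adjusted p = 0.00660, and 0.0531 without callus replicate 6). The sum of its cluster fell (log2 fold change -2.36, adjusted p = 0.00114), but 3 of its 15 contigs are named GST, and the sum of these 3 alone rose (2.63, adjusted p = 0.00755).

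Cluster CL7351 was higher in every callus library. Its 7 contigs matched the tobacco GSTs APIC (4 contigs) and PARB, an auxin-responsive phi GST (1 contig), and a GST of Egyptian henbane (*Hyoscyamus muticus*, 2 contigs). The sum was 4.43, 6.88 and 13.6 FPKM in leaf and 247, 83.2 and 96.6 FPKM in callus, and the log2 fold change was 4.01 ± 0.68 (adjusted p = 0.00586), and 3.33 without callus replicate 4 (adjusted p = 0.0133). All callus libraries were above leaf, and 4 of the 5 contigs tested were called. CL7351.Contig3_All was at 1.40, 2.74 and 5.21 FPKM in leaf and 156, 37.8 and 50.7 FPKM in callus (log2 fold change 4.74 ± 0.85, adjusted p = 0.0140). CL7351.Contig4_All was at 2.25, 0.90 and 0.62 FPKM in leaf and 55.95, 17.3 and 20.9 FPKM in callus (log2 fold change 4.68 ± 0.80, adjusted p = 0.0123). Without callus replicate 6 their adjusted p was 0.0603 and 0.0589. With the names placed by their database entries, APIC and PARB to phi, the phi sum became higher in callus (log2 fold change 0.74 ± 0.22, adjusted p = 0.0362), a call lost in 4 of the 6 fits with a library left out (adjusted p up to 0.0920). The tau sum, then of 52 unigenes, was 1.62 ± 0.73 (adjusted p = 0.120), and 0.54 without callus replicate 4.

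Few of the unlettered unigenes were called lower. CL4714.Contig2_All went from 14.0, 8.63 and 12.9 FPKM to 3.40, 1.23 and 1.2 FPKM (log2 fold change -2.57 ± 0.60, adjusted p = 0.0271, called in 3 of the 6 fits with a library left out). Its cluster was lower too (log2 fold change -2.85, adjusted p = 0.00878), and the cluster's call was kept whichever library was left out. The other, Unigene29120_All, chosen after its values were seen, was at 1.01, 0.61 and 2.32 FPKM in leaf and 0.05, 0 and 0.11 FPKM in callus.

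Theta GSTs were lower as a class through many scarce unigenes. Of 17 tested, 5 were lower and 0 higher, and the signs of the fold changes were 15 negative and 2 positive. The only abundant one, Unigene12258_All, a match to *Arabidopsis* GSTT1, was at 52.1, 34.3 and 39.8 FPKM in leaf and 26.4, 35.7 and 31.6 FPKM in callus. Its groups overlapped and it did not pass the test (log2 fold change -0.43 ± 0.23, adjusted p = 0.203). Unigene1241_All (1.48, 4.69 and 3.92 FPKM against 10.3, 6.82 and 7.05 FPKM, adjusted p = 0.152) and Unigene38181_All (0.43, 5.49 and 7.96 FPKM against 5.95, 1.65 and 5.83 FPKM, adjusted p = 0.977) were not called. Unigene12382_All, another GSTT1 match, was called lower, with 8.25, 7.89 and 2.42 FPKM in leaf and 1.51, 1.48 and 0.86 FPKM in callus (log2 fold change -2.28 ± 0.62, adjusted p = 0.0419). That call was kept in only 1 of the 6 fits with a library left out (adjusted p up to 0.157).

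Theta unigenes also differed in how far their other annotation bore the name out. A GST domain in Pfam was recorded for 9 of the 28, and the NR match was named a GST or dehydroascorbate reductase for 11. For 5 of the 28, 4 T3 matches and 1 T2 match, the Pfam domain was the no apical meristem-associated C-terminal domain, and for 2 it was of a reverse transcriptase. Among the 9 with a GST domain, 7 were tested and 2 were lower. Over the whole family 81 of 130 had a GST domain and 101 an NR match so named. Of the 60 tested unigenes with a domain, 12 were higher and 10 lower, and of the 27 without one, 2 were higher and 6 lower. No unigene without a domain had a mean over 15.9 FPKM. All 130 had an NR match, and those matches named 43 species.

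Tau GSTs with a letter were scarce. Of 14, 4 passed the filter. CL11575.Contig2_All, a match to *Arabidopsis* GSTU17, was at 6.09, 4.63 and 10.6 FPKM in leaf and 31.7, 17.4 and 17.2 FPKM in callus. The tissues did not overlap and the adjusted p was 0.0503 (log2 fold change 1.65 ± 0.48). CL11575.Contig1_All ran the other way, at 22.9, 7.32 and 20.6 FPKM against 13.0, 5.30 and 4.77 FPKM (log2 fold change -1.10, adjusted p = 0.232). The sum of this cluster was 30.9, 12.6 and 31.9 FPKM in leaf and 47.5, 25.0 and 23.7 FPKM in callus (log2 fold change 0.14, adjusted p = 0.828), so the contigs differed where their sum did not pass the test. CL1434.Contig2_All, a GSTU8 match, was at 10.7 FPKM in leaf replicate 1 and 0 in the other 5 libraries, and did not pass the filter. The called tau unigene, Unigene27512_All, chosen after its values were seen, was at 0, 0 and 0.28 FPKM in leaf and 5.24, 1.33 and 2.33 FPKM in callus.

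The lambda and TCHQD classes were small. Unigene9533_All, a match to the chloroplastic GSTL2, was at 8.46, 10.7 and 9.88 FPKM in leaf and 18.97, 12.7 and 14.1 FPKM in callus. Its callus libraries were above leaf, but it was not called (log2 fold change 0.66 ± 0.28, adjusted p = 0.132). It was the only lambda unigene with a GST domain in Pfam. Unigene8241_All, also a GSTL2 match, was lower, with 3.97, 7.56 and 8.43 FPKM in leaf and 2.13, 1.03 and 1.48 FPKM in callus (log2 fold change -2.10 ± 0.50, adjusted p = 0.0287). Its only Pfam domain is the Mak16 protein C-terminal region, not a GST domain. Unigene18871_All, a GSTL1 match, was at 20.5, 8.21 and 1.77 FPKM in leaf and 0.92, 0.49 and 0.25 FPKM in callus (log2 fold change -4.10 ± 1.09, adjusted p = 0.0402). Its leaf libraries differed more than 10-fold. Both calls were kept in only 1 of the 6 fits with a library left out (adjusted p up to 0.125 and 0.149). The leading TCHQD unigene, CL9924.Contig2_All, at 9.03, 12.7 and 4.86 FPKM against 2.74, 6.01 and 6.31 FPKM, overlapped between the tissues (adjusted p = 0.258), and its cluster was lower (log2 fold change -1.35 ± 0.25, adjusted p = 0.00832, and 0.0534 without callus replicate 6).

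Within clusters the contigs did not always share a direction. Of the 16 clusters with more than 1 GST contig, 6 had fold changes of both signs, and only CL4832 had called contigs in both directions. Between libraries of 1 tissue, the 31 unigenes with at least 10 FPKM had a median ratio of the highest to the lowest library of 2.52 in leaf and 1.79 in callus.

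Other genes that make, use or move glutathione, or lie beside the zeta step, were counted in 4 lists. Of their 251 tested unigenes, 19 (7.57%) were higher and 35 (13.9%) lower in callus, against 14.2 and 12.3% of all unigenes. Without callus replicate 4 it was 15 and 20, and without replicate 6 it was 3 and 1. The shares of all unigenes called higher and lower fell as well. They were 6.79 and 5.46% without replicate 4, and 0.899 and 0.611% without replicate 6. Genes of glutathione supply and turnover had 4 higher and 11 lower of 61 tested. The most abundant, Unigene41673_All, a gamma-glutamylcyclotransferase, which breaks glutathione down, was at 108, 184 and 69.2 FPKM in leaf and 13.3, 20.6 and 17.5 FPKM in callus. All callus libraries were below leaf (log2 fold change -2.84 ± 0.43, adjusted p = 0.00995). Other glutathione-linked enzymes, such as glutathione peroxidases and glyoxalases, had 6 higher and 16 lower of 76 tested. Their most abundant member, CL10403.Contig2_All, a chloroplastic glutathione peroxidase, went from 271, 309 and 294 FPKM to 78.5, 62.5 and 69.3 FPKM (log2 fold change -2.056 ± 0.20, adjusted p = 0.00494). ABCC transporters, among them vacuolar pumps that take up glutathione conjugates, had 9 higher and 8 lower of 94 tested. Their most abundant unigene, CL165.Contig1_All, a match to ABCC14, was at 82.8, 38.7 and 76.2 FPKM in leaf and 59.0, 30.2 and 31.0 FPKM in callus and overlapped (adjusted p = 0.256). The median log2 fold change was -0.55 over the 4 lists, beside -0.10 over all unigenes tested.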

How the data were processed

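Reads had been assembled into unigenes by the authors, aligned to them with Bowtie2 2.2.5 and quantified with RSEM 1.2.8, as their methods state. The deposited files give RSEM's expected counts per unigene, not normalized, and reads that match several contigs are shared among them. The authors also deposited FPKM values, normalized for transcript length and library total, which were used for levels, and unigene lengths. TPM, the authors' average FPKM and their columns of fold changes, p-values and q-values were not used. Tissue was taken from the labels.

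Expected counts were rounded to whole numbers, filtered with filterByExpr, scaled by TMM and tested with the quasi-likelihood test of edgeR 4.0.16 in R 4.3.3 over all 66307 unigenes kept, with p-values adjusted by Benjamini-Hochberg. The threshold for a call was 0.05, as the stricter thresholds of the study (0.001 and 2-fold) call 0 of all unigenes in this test, GSTs included. At an unadjusted p under 0.05 there were 41 of the 87 GST unigenes tested, beside 27668 of all 66307. Counts summed by CL number were rounded after summing and tested in the same way (32898 clusters and singles), with the class sums as added features. Pairs of libraries of 1 tissue differed by a chi-square of 14.5 to 87.9 per unigene, and none was treated as a copy. The procedure was also run on simulated counts, which varied less between replicates than these libraries did. That run therefore cannot tell how many real differences were found or missed here.

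Unigenes were named by rule: the 3 most abundant of each class (1 in classes with under 5 members), the 8 largest called rises and falls whose higher tissue had a mean of 5 FPKM or more, the 5 most abundant clusters and the most abundant member of each related list. Exceptions are marked. Members and lists were chosen with earlier results of these data known. A fold against a tissue at 0 is a bound against 3 counts over the group. Sequences of the unigenes were not analysed here. Alternatives were DESeq2 1.42.0, its size factors in edgeR, edgeR's non-legacy settings, no filter, limma 3.58.1 on log2(FPKM + 1) and log2(FPKM + 0.01), removal of peanut-matching unigenes, other choices of members and each library left out in turn.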

Additional observations from a re-analysis of the deposited data

Results flagged for a closer look

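The 16 GST-named unigenes with a peanut match, which were left out of every comparison above, held 330 expected counts in leaf replicate 1, 14 in leaf replicate 2 and 0 in the other 4 libraries. A signal in data outside the comparisons, in 1 library above all, was what singled this out. The share of all counts that fell on unigenes with a peanut match was 1.17% in leaf replicate 1, 0.25 and 0.347% in the other leaf libraries and 0.178 to 0.186% in callus. With all peanut-matching unigenes removed before scaling, the counts of GST unigenes stayed at 14 higher and 16 lower.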

How the results depend on the processing

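No paired analysis was possible because the leaf and callus samples share no replicate number. Under the study's thresholds (adjusted p of 0.001 and 2-fold), edgeR called 0 of all unigenes tested, and so 0 in any list. It called 0 GST clusters, and the zeta (1.13), DHAR (-0.94), theta (-1.12) and TCHQD (-1.32) sums missed the threshold. At those thresholds DESeq2, an alternative chosen after seeing the data, called 11 GST unigenes higher and 8 lower. At 0.05 it called 17 GST unigenes higher and 30 lower, 34 related glutathione unigenes higher and 63 lower, 2 photosynthesis markers higher, and the sum without a class letter (1.83). Of all 95663 unigenes with an adjusted p from DESeq2, 15.6% were called higher and 16.1% lower at 0.05. With no filter on low counts, 9 GST unigenes were higher and 5 lower, 19 related unigenes were lower and 0 photosynthesis markers were higher. limma on log2(FPKM + 1) gave 32 related unigenes and 5 markers higher, and on log2(FPKM + 0.01) 2 markers higher. It was not run on clusters or class sums. The share of all unigenes called was not counted without the filter or under limma, so these counts cannot be read as particular to the listed genes. Counting only unigenes with a GST domain, an alternative chosen after seeing the data, gave 12 GST unigenes higher and 10 lower. Names without a letter placed by entry left 4 unigenes in that group, with a sum of 2.35 (adjusted p = 0.0132), and gave phi 0.74. With each library left out, GST unigenes ran from 1 to 14 higher and 0 to 16 lower, GST clusters from 5 to 8 and 8 to 21, related unigenes from 3 to 28 and 1 to 42, and markers from 0 to 3 and 7 to 50. The class sums ran from -0.68 to -0.17 for lambda, -0.40 to 0.34 for tau, -1.50 to -1.15 for TCHQD and 0.16 to 1.25 for all GSTs. The tau sum was reversed at -0.28 without leaf replicate 2 and -0.40 without callus replicate 4. Unigene30093_All was reversed at -0.07 without leaf replicate 2. Unigene38181_All was reversed under DESeq2 (0.04), no filter (0.06) and limma (0.20 and 0.53), and without leaf replicates 2 (0.13) or 3 (0.57) or callus replicate 5 (0.38). Unigene6093_All was reversed with DESeq2's size factors (0.01), DESeq2 (0.07) and no filter (0.10), and without leaf replicates 1 (0.03) or 3 (0.09) or callus replicate 5 (0.16). With a library left out, these ran from -0.07 to 0.35 for Unigene30093_All, -0.59 to 0.57 for Unigene38181_All and -0.12 to 0.16 for Unigene6093_All. None of these reversed values was called. The other 37 of 40 named unigenes and clusters kept their direction in all alternatives run. Over the clusters, the median of all features moved from -0.05 with TMM to 0.07 under DESeq2. The cause of these changes was not tested. With 3 libraries a tissue and single unigenes spread by a coefficient of variation of 0.753, small differences could not be told from replicate spread. The sum over a cluster had the lower coefficient of variation, 0.537. It does not describe the GSTs where other contigs hold most of the counts, as in CL725 and CL13611.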
